A study of Mus musculus with 10 samples.

Results

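Genes of the antioxidant response driven by the transcription factor NRF2 were followed in acid-treated mouse tumour cells. The 10 genes were Hmox1, Nqo1, Gclc, Gclm, Txnrd1, Srxn1, Gsr, Prdx1, Me1 and Osgin1. They were chosen as a pathway, with earlier results of these data known. Each was read through every probe set annotated to that gene alone. There were 18 such probe sets for 9 of the 10 genes, out of 34945 probe sets with a single gene symbol. Prdx1, a peroxide-reducing enzyme, had 0, because its 5 probe sets were shared with a predicted gene, so no value is given for it. For each of the other 9 genes the brightest probe set entered the tests, and all 9 were above the filter on dim genes, out of 12161 genes tested.

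The cells were Lewis lung carcinoma cells, a tumour line of C57BL/6 mice. One line stably expressed TDAG8, a proton-sensing receptor, and the other carried the control vector. All cells first spent 12 h without serum in medium with 0.1% albumin at pH 7.4, and then kept at pH 6.4 or pH 7.4 for 4 h or 12 h. The 10 groups were thus, first for the TDAG8 line and then for the control line, before treatment, pH 6.4 for 4 h, pH 7.4 for 4 h, pH 6.4 for 12 h and pH 7.4 for 12 h. Each group had 1 Affymetrix whole-genome mouse array, hybridised with pooled RNA of 4 independent cultures. Whether a line is 1 clone is not given in the sources used here, so a difference between the lines may be one between clones. With no replicate arrays, matched pairs of arrays stood in for replicates, and every p-value measures only the spread between these arrays.

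NRF2, encoded by Nfe2l2, is held at a low level in unstressed cells because KEAP1 and the ubiquitin ligase scaffold CUL3 mark it for degradation. Oxidants and electrophiles modify KEAP1, and the NRF2 protein that then accumulates pairs with a small MAF protein and binds antioxidant response elements in the promoters of its targets. Those targets make and recycle glutathione and thioredoxin, supply NADPH, and break down haem and quinones. Human lung tumours often carry mutations of this system, for which it is well known in that tissue.

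The proximal promoters are shown for the members with a match to the response element whose signal rose at pH 6.4 after 12 h, and for Srxn1, whose 4 probe sets are described for each line. The sequences are the 250 bases before a transcript start in RefSeq (mouse GRCm38.p6), written 5′ to 3′ on the gene's strand, with matches in capitals. The letters searched were TGACNNNGC, a core of the antioxidant response element, and TGANTCAGC, the form shared with the binding site of MAF proteins, on both strands. A site whose letters fit both, such as TGACTCAGC, was counted under each.
Osgin1 (chr8:119436897-119437146, plus strand): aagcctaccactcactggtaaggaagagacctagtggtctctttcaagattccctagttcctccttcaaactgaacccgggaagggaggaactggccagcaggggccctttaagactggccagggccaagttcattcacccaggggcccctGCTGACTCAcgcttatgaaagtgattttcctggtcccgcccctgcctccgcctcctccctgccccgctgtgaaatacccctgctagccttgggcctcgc
Gclm (chr3:122245307-122245556, plus strand): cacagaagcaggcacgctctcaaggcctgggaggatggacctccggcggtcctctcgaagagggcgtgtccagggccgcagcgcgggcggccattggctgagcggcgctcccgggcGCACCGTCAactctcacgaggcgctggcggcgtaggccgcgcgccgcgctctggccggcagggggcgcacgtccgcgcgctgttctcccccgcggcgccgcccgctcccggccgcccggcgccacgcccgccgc
Txnrd1 (chr10:82858956-82859205, plus strand, the second of 3 starts): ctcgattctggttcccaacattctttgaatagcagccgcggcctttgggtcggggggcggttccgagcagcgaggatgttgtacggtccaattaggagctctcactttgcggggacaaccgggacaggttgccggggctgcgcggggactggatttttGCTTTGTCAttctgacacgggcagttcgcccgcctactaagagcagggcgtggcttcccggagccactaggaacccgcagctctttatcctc
Srxn1 (chr2:152105274-152105523, plus strand): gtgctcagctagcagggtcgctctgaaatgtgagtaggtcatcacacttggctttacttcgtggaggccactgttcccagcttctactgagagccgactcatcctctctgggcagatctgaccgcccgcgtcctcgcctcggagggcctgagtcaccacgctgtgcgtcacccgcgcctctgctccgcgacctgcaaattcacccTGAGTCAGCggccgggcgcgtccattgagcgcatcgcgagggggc
Of the members, 7 had a promoter entry, with 10 entries in all, and 6 members held a match in the 300 bases from 250 before to 50 after a start. Of all 32851 promoters of that length, 12.4% held TGACNNNGC, 1.19% TGANTCAGC and 13% either. Me1 and Txnrd1 had more than 1 entry, so the count per member and the share per promoter are unlike measures. The TGANTCAGC match of Osgin1 began 99 bases upstream on the reverse strand, and that of Srxn1 45 bases upstream on the forward strand. The transcript start of the Osgin1 entry lies inside the gene's span (chr8:119425882-119446257) rather than at its first base. Srxn1 also had a TGACNNNGC match after the start, outside the bases shown (chr2:152105552-152105560, reverse strand). Gclm and Txnrd1 had TGACNNNGC alone, from 134 and 92 bases upstream. At Me1 both patterns fitted 1 site that crossed the start (chr9:86695912-86695920, minus strand), which is shown with 8 bases on each side.
Me1: tgccgccgTGACTCAGCgcttctcg
Prdx1 had 1 site that fitted both patterns, 133 bases upstream. The Nqo1 entry held neither pattern in this window, and Hmox1, Gclc and Gsr had no entry. A match describes the letters only, and binding was not measured.

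The arrays were of like brightness, with a 2% trimmed mean of 100 on each and medians of 11.7 to 13.8. The probe set of the receptor gene Gpr65 read 0.3 to 5.3 on all 10 arrays, so it gives no check of the line labels. The keratin gene Krt8 read 1242 to 2648 and vimentin, Vim, 6140 to 9227, while the epithelial cadherin Cdh1 read 0.2 to 5.3. Of the other epithelial markers Krt18 read 21.6 to 194.4, Epcam 22.1 to 45.1 and Ocln 7 to 31.1, and of the mesenchymal ones Pdgfra read 264.7 to 1617.4 and Col1a1 0.4 to 6.4. The 5 leukocyte markers read at most 20.8 and the 3 endothelial markers at most 14.5. The ratio of 3′ to 5′ signal of Gapdh, a sign of RNA quality, was 0.770 (TDAG8) and 0.756 (control) after 12 h of pH 6.4, and between 0.780 and 0.841 on the remaining arrays. The same ratio of actin was 1.272 (TDAG8) and 1.35 (control) after 12 h of pH 6.4, and between 1.258 and 1.352 on the remaining arrays.

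At 12 h, 5 of the 9 measured members were higher at pH 6.4 than at pH 7.4: Osgin1, Txnrd1, Gclc, Gclm and Nqo1, by 1.58-fold to 2.15-fold. Srxn1, Gsr, Me1 and Hmox1 did not pass. The share of members called was 55.6%, against 34.5% of all genes tested in the same comparison, of which 16.9% were higher and 17.6% lower. The members were chosen with earlier results of these data known, so this is not an unbiased comparison of shares. In pooled RNA, a change in every cell and a change in the share of cells that express a gene cannot be told apart. The median difference was 0.66 on the log2 scale over the 9 members and 0.02 over all genes. At 4 h Osgin1 alone passed, 11.1% of the members against 17.7% of all genes and 6.19% called higher. Over both times together Osgin1 was again the 1 member called, against 10.03% of all genes and 4.47% called higher. The tests were limma's moderated tests on log2(signal + 2.4), with Benjamini-Hochberg adjustment over all 12161 genes and a threshold of 0.05.

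**Figure D1:**
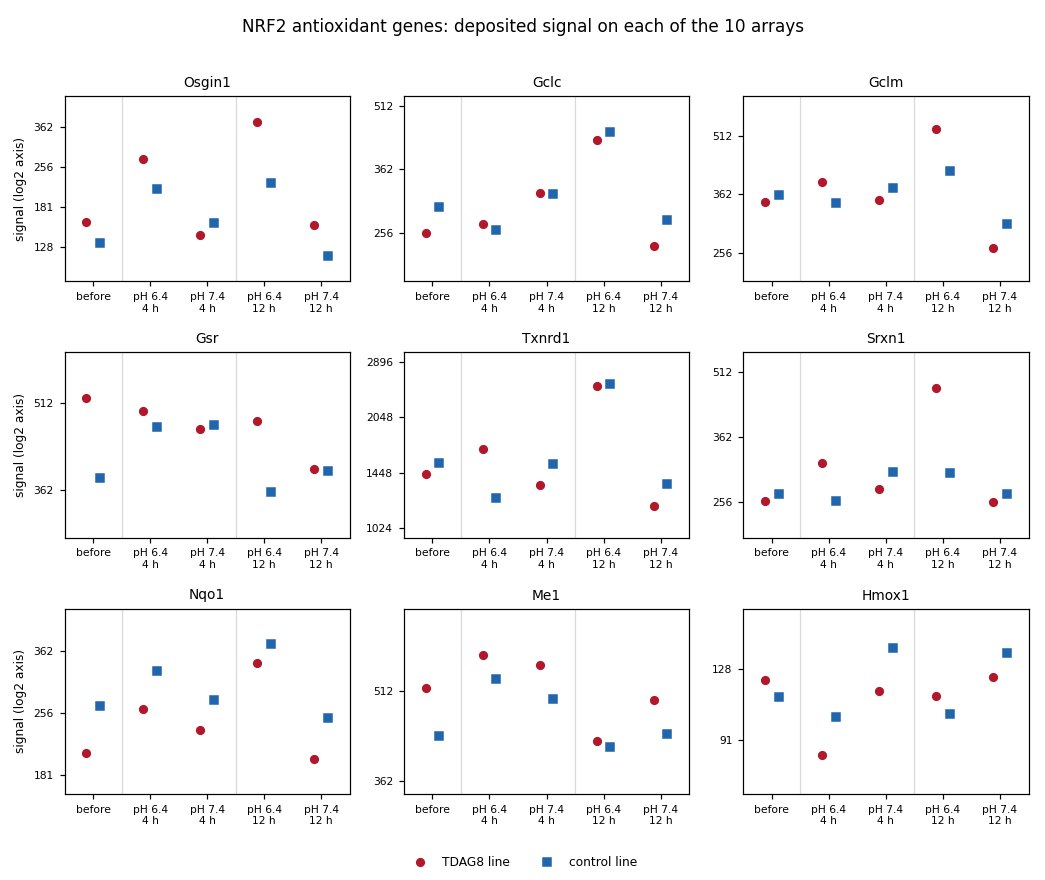
Deposited signal (log2 axis) of the brightest probe set of the 9 measured members on each of the 10 arrays, TDAG8 line as red circles and control line as blue squares. At 12 h the pH 6.4 points of Osgin1, Gclc, Gclm, Txnrd1 and Nqo1 lie above the pH 7.4 points in both lines, while those of Hmox1 and Me1 lie below.

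Osgin1, a growth inhibitor gene induced by oxidative stress (chr8:119425882-119446257), had the largest range of the members by their brightest probe sets, 3.20-fold over the 10 arrays. In the TDAG8 line it read 159 before treatment, 273 at pH 6.4 against 142 at pH 7.4 after 4 h, and 378 against 154.5 after 12 h. In the control line it read 132 before treatment, 211 at pH 6.4 against 157 at pH 7.4 after 4 h, and 222 against 118 after 12 h. The 4 pH 6.4 arrays read 211 to 378 and the 4 pH 7.4 arrays 118 to 157. How many of all genes separate in this way was not counted. The rise was 1.71-fold at 4 h (log2 0.77, SE 0.20, limma adjusted p = 0.0486) and 2.15-fold at 12 h (log2 1.11, SE 0.20, adjusted p = 0.00891). Over both times it was 1.92-fold (log2 0.94, SE 0.15, adjusted p = 0.0271), and 4 of 4 pairs had this direction. The call at 4 h rested on all 4 arrays, since without any 1 of them Osgin1 no longer passed, with log2 differences of 0.49 to 1.06. At 12 h it was lost without the control array at pH 7.4 (log2 1.05, adjusted p = 0.0595). Over both times it was lost without the TDAG8 pair at 4 h (log2 0.92), the TDAG8 pair at 12 h (0.83) or the control pair at 12 h (0.94).

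Glutathione synthesis begins with glutamate-cysteine ligase, whose catalytic subunit is encoded by Gclc (chr9:77754535-77794489) and whose modifier subunit by Gclm (chr3:122245487-122267215). Gclc in the TDAG8 line read 255 before treatment, 268 at pH 6.4 against 318 at pH 7.4 after 4 h, and 425 against 238 after 12 h. In control cells Gclc read 294 before treatment, 259 at pH 6.4 against 317 at pH 7.4 after 4 h, and 445 against 274 after 12 h. The 12 h arrays at pH 6.4 were the highest of both lines, and the 4 h arrays at pH 6.4 lay below their pH 7.4 partners. The difference was 1.68-fold at 12 h (log2 0.75, SE 0.11, limma adjusted p = 0.00421), and at 4 h it was -0.19 on the log2 scale (SE 0.11, adjusted p = 0.273), which did not pass. Tested against each other, the 12 h and 4 h differences of Gclc were 0.94 apart (SE 0.15, adjusted p = 0.0219). The second probe set of Gclc had the same course, with 391 and 411 at pH 6.4 against 199 and 229.8 at pH 7.4 after 12 h (TDAG8 and control lines). The pH 7.4 arrays read lower at 12 h than at 4 h, by 0.43 for TDAG8 cells and 0.19 for control cells on the log2 scale. Set against the arrays before treatment, Gclc at pH 6.4 after 12 h was 0.74 and 0.58 higher in these lines. At pH 7.4 after 12 h it differed from the arrays before treatment by -0.07 and -0.10.

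Gclm in the TDAG8 line read 346 before treatment, 389.8 at pH 6.4 against 350.5 at pH 7.4 after 4 h, and 532 against 264 after 12 h. For the control line the Gclm readings were 359.9 before treatment, 344 at pH 6.4 against 375 at pH 7.4 after 4 h, and 416 against 303 after 12 h. Both 12 h arrays at pH 6.4 lay above all other arrays, and both 12 h arrays at pH 7.4 below all others. Gclm was 1.65-fold higher at pH 6.4 than at pH 7.4 after 12 h (log2 0.72, SE 0.16, limma adjusted p = 0.016), and the log2 difference was 0.07 at 4 h (adjusted p = 0.793). The call at 12 h was lost without the TDAG8 array at pH 6.4 (log2 0.51, adjusted p = 0.0637) or at pH 7.4 (log2 0.57, adjusted p = 0.0985). The dimmer second probe set of Gclm, at 58.3 to 91.3, gave 65.0 and 58.3 at pH 6.4 against 67.5 and 63.9 at pH 7.4 after 12 h, and the log2 difference of the quantile-normalised values was 0.03 (adjusted p = 0.866), opposite in sign to that of these deposited readings. The probe sets of Gclm thus disagreed, and which transcripts each one reads was not analysed here. Relative to the arrays before treatment, pH 6.4 at 12 h was 0.63 higher for TDAG8 cells and 0.18 higher for control cells with the brighter probe set. With the same probe set pH 7.4 at 12 h differed by -0.38 and -0.25 in these lines. Part of the 12 h difference of Gclm thus lay on the neutral side.

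Gsr, the reductase that regenerates glutathione (chr8:33653238-33698162), moved little. In the TDAG8 line its readings were 523 before treatment, 497 at pH 6.4 against 462 at pH 7.4 after 4 h, and 476 against 394 after 12 h. In the control line they were 379 before treatment, 465.5 at pH 6.4 against 468.5 at pH 7.4 after 4 h, and 359 against 391 after 12 h. The pH groups overlapped, and the lines stood furthest apart before treatment. The pH difference of Gsr was 0.07 at 12 h (SE 0.15, adjusted p = 0.776) and 0.06 at 4 h, with a 95% interval of -0.31 to 0.44 at 12 h. Its second probe set ranged over 1.20-fold, from 330.0 to 396.5, on all 10 arrays.

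Txnrd1, which reduces thioredoxin (chr10:82833951-82897724), was measured by 3 probe sets. The brightest read 1434 in the TDAG8 line before treatment, 1673 at pH 6.4 against 1340.3 at pH 7.4 after 4 h, and 2496 against 1177 after 12 h. The control line gave 1539 before treatment, 1234 at pH 6.4 against 1532 at pH 7.4 after 4 h, and 2517 against 1349 after 12 h. The pH 6.4 arrays at 12 h stood well above the other 8, which lay between 1177 and 1673. The pH difference at 12 h was 1.96-fold (log2 0.97, SE 0.17, limma adjusted p = 0.00736), and the call was lost without the TDAG8 array at pH 7.4 (log2 0.83, adjusted p = 0.052). At 4 h the lines had opposite signs, 0.15 for TDAG8 cells and -0.46 for control cells, and the joint difference of -0.16 did not pass (adjusted p = 0.566). The 12 h difference of Txnrd1 exceeded that at 4 h by 1.13 (SE 0.24, adjusted p = 0.0354). Against the arrays before treatment, its brightest probe set was 0.79 (TDAG8) and 0.68 (control) higher at pH 6.4 after 12 h. At pH 7.4 after 12 h it differed from them by -0.34 and -0.13. In the fit over 22854 single-symbol probe sets, of which 31.1% passed at 12 h, the other Txnrd1 probe sets rose as well. One read 619.8 and 442 at pH 6.4 against 230.3 and 230.1 at pH 7.4 in the TDAG8 and control lines after 12 h (log2 1.18, adjusted p = 0.00664). The dimmest read 152 and 84.0 at pH 6.4 against 58.7 and 72.1 at pH 7.4 (log2 0.85, adjusted p = 0.0438), with a larger gap in the TDAG8 line.

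Gclc and Txnrd1 were the 2 members, 22.2% of those measured, whose 12 h and 4 h pH differences were called different, against 12.1% of all genes and 6.63% in that direction. This comparison was added after the data were seen. When 1 of the 8 treated arrays was left out in turn, Gclc passed in 0 of 8 fits and Txnrd1 in 1 of 8, with differences of 0.86 to 1.01 and 0.88 to 1.38. The second Gclc probe set also passed in the fit over every probe set, at 0.93 (adjusted p = 0.0276), where 7.71% of probe sets did. The 2 other Txnrd1 probe sets did not, at 0.96 (adjusted p = 0.0813) and 0.54 (adjusted p = 0.374). The same comparison gave 0.65 for Gclm (adjusted p = 0.107), 0.39 for Nqo1 (adjusted p = 0.116) and 0.33 for Osgin1 (adjusted p = 0.483), none of which passed. The Gapdh 3′ to 5′ ratio was lowest on the same pH 6.4 arrays at 12 h. The actin ratio of these arrays lay within the range of the others. The part of RNA quality in these differences was not tested.

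**Figure D2:**
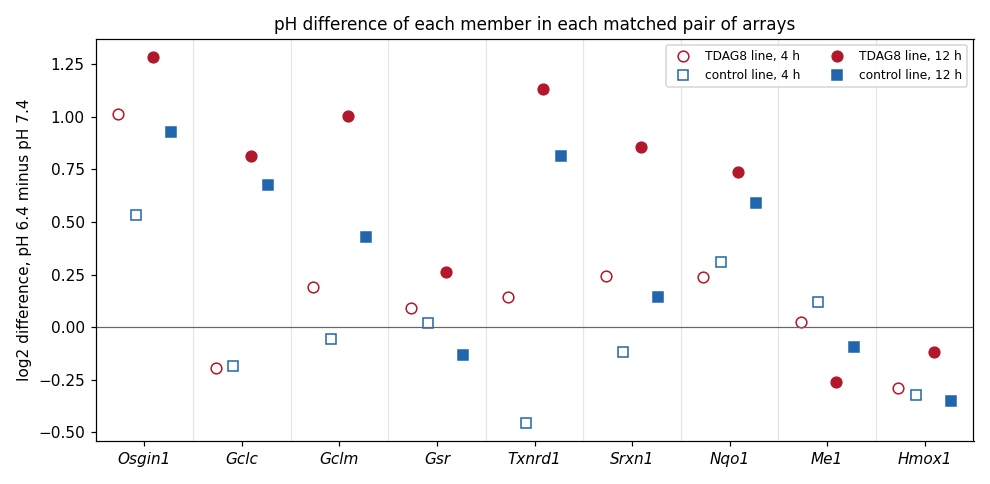
Difference in log2(signal + 2.4), pH 6.4 minus pH 7.4, of each member in each of the 4 matched pairs of arrays; open symbols are 4 h, filled symbols 12 h, red circles the TDAG8 line and blue squares the control line. Osgin1 and Nqo1 are above 0 in 4 of 4 pairs, Hmox1 is below 0 in 4 of 4, and Gclc is below 0 at 4 h and above 0 at 12 h in both lines.

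Srxn1 encodes sulfiredoxin, which restores over-oxidised peroxiredoxins (chr2:152105524-152111376). Its brightest probe set read 257.5 in the TDAG8 line before treatment, 315 at pH 6.4 against 274 at pH 7.4 after 4 h, and 470.2 against 256.5 after 12 h. The control line read 267 before treatment, 258 at pH 6.4 against 300 at pH 7.4 after 4 h, and 298.5 against 267.5 after 12 h. The TDAG8 array at pH 6.4 and 12 h was thus alone above 315. Over both lines the 12 h difference was 0.50 (SE 0.21, unadjusted p = 0.0496 and adjusted p = 0.109 by limma) and did not pass. It was 0.17 without the TDAG8 array at pH 6.4 and 12 h, and it passed without the control array at pH 6.4 (0.83, adjusted p = 0.0218) and with a trended and robust prior (adjusted p = 0.0333).

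The 3 other Srxn1 probe sets were compared with the first. The second brightest read 201 at pH 6.4 and 123 at pH 7.4 in TDAG8 cells after 12 h, and 129 at pH 6.4 and 152.5 at pH 7.4 in control cells. The third read 220.5 at pH 6.4 and 77.1 at pH 7.4 in TDAG8 cells after 12 h, and 71.5 at pH 6.4 and 91.0 at pH 7.4 in control cells. In both, pH 6.4 was the higher reading of TDAG8 cells and the lower reading of control cells at 4 h and at 12 h. The pH response in the TDAG8 line exceeded that in the control line by 0.68 (SE 0.29) and 1.37 (SE 0.46) for these probe sets and by 0.54 (SE 0.34) for the brightest, and none of the 3 passed (limma adjusted p = 1 for each). The dimmest probe set, at 16.7 to 42.4, had a difference of 0.31 (SE 0.48).

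**Figure D3:**
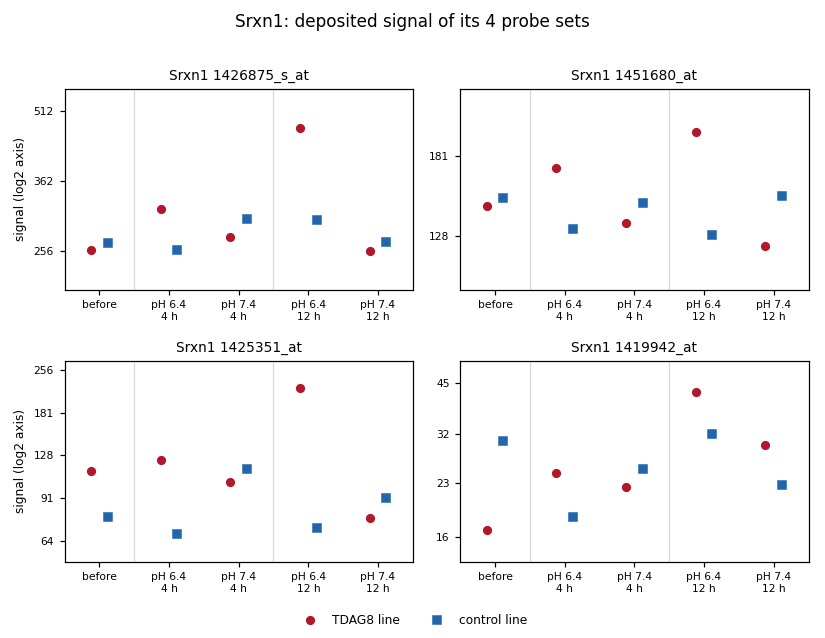
Deposited signal (log2 axis) of the 4 Srxn1 probe sets on each array, TDAG8 line as red circles and control line as blue squares. The TDAG8 array at pH 6.4 and 12 h is the highest of all 10 in each panel, at 470.2, 201, 220.5 and 42.4.

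Nqo1, which reduces quinones (chr8:107388225-107403205), was higher at pH 6.4 in every pair and higher in the control line at every condition. In the TDAG8 line it read 205 before treatment, 261 at pH 6.4 against 233 at pH 7.4 after 4 h, and 339 against 198 after 12 h. In the control line it read 267 before treatment, 324 at pH 6.4 against 275 at pH 7.4 after 4 h, and 377.5 against 249 after 12 h. Within each line the pH 6.4 arrays were above the pH 7.4 arrays, but over both lines the groups overlapped. The rise was 1.58-fold at 12 h (log2 0.66, SE 0.10, limma adjusted p = 0.00439) and was called without each of the 4 arrays in turn. At 4 h the difference was 0.27 (SE 0.10, adjusted p = 0.107), and over both times 0.47 (SE 0.14, adjusted p = 0.0826), neither of which passed.

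Me1, the cytosolic malic enzyme, which makes NADPH (chr9:86581363-86695914), had little pH difference. It read 519.5 in the TDAG8 line before treatment, 588 at pH 6.4 against 567 at pH 7.4 after 4 h, and 422 against 495 after 12 h. The control line gave 431 before treatment, 536 at pH 6.4 against 497 at pH 7.4 after 4 h, and 413 against 434 after 12 h. Its 2 lowest arrays were those at pH 6.4 and 12 h. The differences of 0.07 at 4 h (SE 0.10, adjusted p = 0.65) and -0.18 at 12 h (SE 0.10, adjusted p = 0.217) did not pass.

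Hmox1, the inducible enzyme that degrades haem (chr8:75093618-75100593), was the 1 member below its neutral partner in 4 of 4 pairs. In the TDAG8 line it read 121 before treatment, 84.6 at pH 6.4 against 115 at pH 7.4 after 4 h, and 112 against 123 after 12 h. In the control line it read 112 before treatment, 101 at pH 6.4 against 142 at pH 7.4 after 4 h, and 103 against 138 after 12 h. The pH 6.4 arrays read 84.6 to 112 and the pH 7.4 arrays 115 to 142, and the share of all genes that separate in this way was not counted. The difference over both times was -0.27 (SE 0.11, limma adjusted p = 0.163) and did not pass, nor did those of -0.31 at 4 h (adjusted p = 0.159) and -0.23 at 12 h (adjusted p = 0.215).

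Between the lines, 0 of the 9 members were called over the 5 matched conditions, against 1.20% of all genes by limma, while 1 member was higher and 1 lower at an unadjusted p under 0.05, against 1227 genes higher and 1298 lower of the 12161. Nqo1 was lower in the TDAG8 line in 5 of 5 pairs, by 0.30 on the log2 scale (SE 0.06, adjusted p = 0.0823). It passed in 2 of 10 alternatives, the dim-gene filter at the 60th percentile (adjusted p = 0.0347) and a trended and robust prior (adjusted p = 0.019). Among the 10 the limma adjusted p reached 0.894, and Nqo1 passed in 0 of 5 fits with 1 matched pair left out. Osgin1 was 0.30 higher (SE 0.13, adjusted p = 0.254), in 4 of 5 pairs. Me1 was 0.15 higher in 5 of 5 pairs (adjusted p = 0.234) by its brightest probe set, while its other probe set was higher in 1 of 5 and differed by -0.11 (SE 0.08). The remaining 6 members differed by -0.13 to 0.18.

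The comparison closest to the stated aim of the study, finding genes that the receptor regulates, was whether the pH response differed between the lines. By limma 0 of 12161 genes passed, 0 of the 9 members among them, with 173 genes higher and 166 lower at an unadjusted p under 0.05 and 0 members in either direction. Member differences ran from -0.13 for Me1 to 0.54 for Srxn1, and 8 of 9 were above 0, as were 6038 of all 12161 genes. The members were read on the same arrays, so their signs are not independent. Their 95% intervals were wide, from -0.37 to 1.21 for Osgin1, -0.63 to 1.45 for Gclm and -1.05 to 1.97 for Txnrd1. This model had no term for a pH difference that changes with time, so such a change counted as spread in these intervals. Differences of this size were not detected by this fit, and a fit with that term was not run.

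Across the 10 arrays Gclc and Txnrd1 correlated at r = 0.87, Gclm and Srxn1 at 0.86, and Srxn1 and Osgin1 at 0.82. By contrast Hmox1 and Osgin1 gave r = -0.64, and Me1 and Txnrd1 -0.64. These are descriptions over 10 arrays that share lines, times and pH. Of the members, 3 ranged over at least 1 on the log2 scale, and the genes most like them were listed. For Osgin1 these were Taf13 (r = 0.98), Papolg (0.97) and Rpp25l (0.97). For Txnrd1 they were Nelfa (0.98), Steap1 (0.98) and Eif4e (0.97), and for Gclm Snrnp70 (0.96), Cdc34 (0.95) and Snrpa1 (0.93).

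Of 9 regulators of the pathway, 2 were higher and 3 lower at pH 6.4 after 4 h, and 3 were higher and 0 lower after 12 h by limma. Each was taken by its brightest probe set, and for Nfe2l2 and Cul3 the other probe sets went the other way at 4 h. Those called were 5 of 9 at 4 h, where 17.7% of all genes were called, and 3 of 9 at 12 h, where 34.5% were. Maff and Mafk, which encode small MAF partners of NRF2, were higher at pH 6.4 at both times. Maff read 243 and 174 at pH 6.4 against 53.7 and 51.8 at pH 7.4 after 4 h in the TDAG8 and control lines. After 12 h it read 263 and 316 at pH 6.4 against 74.3 and 71.3 at pH 7.4. The Maff rise was 2.03 at 4 h (SE 0.17) and 1.98 at 12 h (adjusted p = 0.00111) on the log2 scale. Mafk rose by 1.05 and 1.38 (adjusted p = 0.00949 at 12 h), and Nfe2l1, an NRF2 relative, by 0.98 at 12 h (adjusted p = 0.0102). The Mafk call at 4 h (adjusted p = 0.0405) was lost without any 1 of the 4 arrays, with median centring (0.86, adjusted p = 0.0771) and with no filter on dim genes (adjusted p = 0.0904). Without the control array at pH 7.4 and 12 h, the 12 h calls of Mafk (1.02, adjusted p = 0.0509) and Nfe2l1 (0.88, adjusted p = 0.0705) were lost. Mafg, the third small MAF gene, read 253 to 335 on all arrays and did not pass.

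Nfe2l2 itself was lower at pH 6.4 after 4 h by its brightest probe set, which read 887 and 699.7 at pH 6.4 against 1097 and 1085 at pH 7.4 in the TDAG8 and control lines (log2 -0.54, adjusted p = 0.0389). After 12 h the same probe set read 1405 and 1252 at pH 6.4 against 1261 and 1376 at pH 7.4, a log2 difference of -0.0037. A second Nfe2l2 probe set, singled out after its values were seen, moved the other way and far more. It read 187 and 224 at pH 6.4 against 2.6 and 6.6 at pH 7.4 after 4 h, and 100.4 and 111 at pH 6.4 against 1.2 and 8.0 at pH 7.4 after 12 h. The 4 pH 6.4 readings stood far above the 6 others, which were 1.2 to 8.0, around or below the filter level of 6.61. In the fit over every probe set, of which 16.05% passed at 4 h, its difference was 4.97 at 4 h (limma adjusted p = 0.00401) and 4.17 at 12 h (adjusted p = 0.00277), sizes that depend on the added 2.4. With the mean of both probe sets, the Nfe2l2 difference at 4 h turned to 2.22 (adjusted p = 0.00732). The direction for Nfe2l2 therefore depends on the probe set, and which transcript each one reads was not analysed here.

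Keap1, the NRF2 inhibitor, fell at 4 h by 0.45 on the log2 scale (adjusted p = 0.035), with 159.7 and 124 at pH 6.4 against 217 and 201 at pH 7.4 in the TDAG8 and control lines. Cul3 was lower by 0.40 (adjusted p = 0.0395) in its brightest probe set, at 516 and 539.9 at pH 6.4 against 653 and 732 at pH 7.4. Its 4 other probe sets were all higher at pH 6.4 after 4 h, by 0.52, 0.59, 0.66 and 1.10. The 1 with the largest difference read 111 and 150.5 at pH 6.4 against 68.1 and 62.4 at pH 7.4. In the limma fit over every probe set it passed (adjusted p = 0.0091), as did the one at 0.59 (adjusted p = 0.0493). The brightest did not pass in that fit (adjusted p = 0.0526), nor did those at 0.52 and 0.66. With the mean of all 5 the Cul3 difference turned to 0.49 (adjusted p = 0.0507). The 4 h calls of Nfe2l2, Keap1 and Cul3 were each lost without any 1 of the 4 arrays. At 12 h none of the 3 passed by its brightest probe set. The Cul3 probe set with the largest 4 h difference stayed higher (log2 0.67, adjusted p = 0.0221), as did the second one of Nfe2l2. Bach1, a repressor of the same elements, and Sqstm1, which binds KEAP1, did not pass at either time, at -0.33 and -0.32 after 12 h.

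**Figure D4:**
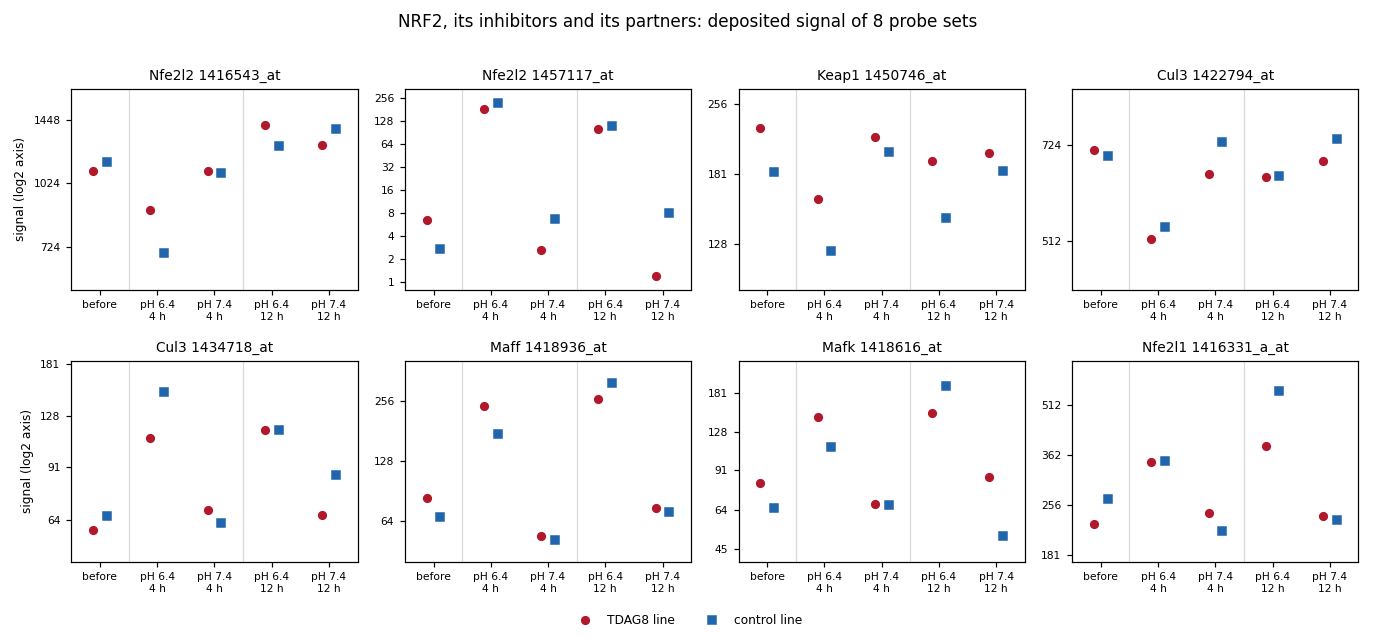
Deposited signal (log2 axis) of 8 probe sets of Nfe2l2, Keap1, Cul3, Maff, Mafk and Nfe2l1 on each array, TDAG8 line as red circles and control line as blue squares. The Nfe2l2 panels differ: the first is lowest at pH 6.4 and 4 h, the second is above 100 on the 4 pH 6.4 arrays and at most 8.0 elsewhere.

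Of 48 other genes of the pathway in 7 lists, regulators included, 9 were higher and 4 lower at 4 h, 27.1% against the 17.7% of all genes, and 14 were higher and 6 lower at 12 h, 41.7% against 34.5%. The median difference of the 48 was 0.11 at 4 h and 0.12 at 12 h. These lists too were chosen with earlier results of these data known. The glutathione list had 4 of 8 tested genes higher and 1 lower at 12 h. Gss, the second enzyme of glutathione synthesis, read 159.5 and 179 at pH 6.4 against 74.2 and 71.3 at pH 7.4 after 12 h in the TDAG8 and control lines, a log2 rise of 1.23 (SE 0.15, adjusted p = 0.00268). The exporter gene Abcc1 read 1222 and 1379 at pH 6.4 against 509.6 and 369.6 at pH 7.4 (log2 1.60, adjusted p = 0.00233), and Glrx, glutaredoxin, rose by 1.05. Chac1, which breaks glutathione down, fell by 1.75 (SE 0.54, adjusted p = 0.0481), at 26.2 and 111 at pH 6.4 against 189.7 and 209.8 at pH 7.4. That call was kept in 1 of 4 fits with 1 array left out, the one without the control array at pH 6.4 (-2.50), and the difference was -1.003 without the TDAG8 array at pH 6.4. It was also lost with no filter on dim genes (adjusted p = 0.0926). The cystine carrier gene Slc7a11, named after its value was seen, rose by 0.73 (adjusted p = 0.023) at low readings, 21.5 and 24.5 at pH 6.4 against 15.0 and 14.6 at pH 7.4. The call was kept in 1 of 4 fits with 1 array left out, the one without the TDAG8 array at pH 6.4 (0.88). With the mean of its 2 probe sets the difference became -0.12, since the other read 13.2 and 4.6 at pH 6.4 against 21.5 and 18.6 at pH 7.4.

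The thioredoxin and peroxiredoxin list had 3 of 8 genes higher and 1 lower at 12 h, where 34.5% of all genes were called. Txnip, which binds and inhibits thioredoxin, had the largest 12 h rise of the lists' genes by the brightest probe sets, with 2958 and 3150.3 at pH 6.4 against 677 and 508.5 at pH 7.4 in the TDAG8 and control lines (log2 2.39, SE 0.19, adjusted p = 0.000928). After 4 h it read 2724 and 3751 at pH 6.4 against 449 and 416 at pH 7.4. The mitochondrial genes Prdx3 (0.66) and Txn2 (0.38) also rose at 12 h, while the stress gene Sesn2 fell by 1.13 on the log2 scale. The Txn2 call was lost without any 1 of the 4 arrays, and that of Prdx3 without the control array at pH 6.4 (0.60) or at pH 7.4 (0.50). The Sesn2 call was lost without the TDAG8 array (-0.89) or the control array (-1.36) at pH 7.4. Its size was -0.55 without the TDAG8 array at pH 6.4 and -1.71 without the control array at pH 6.4. Thioredoxin itself, Txn1, did not pass.

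Of the 4 tested genes of NADPH supply, 1 was called higher and 1 lower at 12 h, where 34.5% of all genes were called. Pgd, at -0.36 (limma adjusted p = 0.0516), and Taldo1, at 0.22 (adjusted p = 0.315), did not pass. Tkt, of the pentose phosphate pathway, rose by 0.65 (adjusted p = 0.032). That call held in 1 of 4 fits with 1 array left out, the one without the TDAG8 array at pH 7.4 (0.94), and the difference was 0.35 without the control array at pH 7.4. With no filter on dim genes (adjusted p = 0.0727) and with values as deposited (adjusted p = 0.0529) Tkt did not pass. Idh1, which makes NADPH in the cytosol, read 746 and 656 at pH 6.4 against 2248 and 1991 at pH 7.4 in the TDAG8 and control lines (log2 -1.65, SE 0.10, adjusted p = 0.000769). Its readings after 4 h were 2134 and 1817 at pH 6.4 against 2213 and 2202 at pH 7.4. The 12 h difference of Idh1 lay 1.31 below that at 4 h (log2 -1.31, adjusted p = 0.0155), a call that 3 of 8 fits kept when 1 treated array was left out.

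Of 10 detoxification genes, Cbr3 rose by 0.61 at 12 h, and Abcc4, Mgst1 and Akr1b8 fell by 0.96, 0.44 and 0.39 on the log2 scale. Among all genes 34.5% were called at 12 h. With 1 of the 4 arrays left out, the calls of Cbr3, Mgst1 and Akr1b8 each held in 1 of 4 fits. That fit was the one without the control array at pH 6.4 for Cbr3, without the TDAG8 array at pH 6.4 for Mgst1, and without the control array at pH 7.4 for Akr1b8. Akr1b8 was at -0.25 without the TDAG8 array at pH 7.4, and Abcc4 was lost without the control array at pH 7.4 (-0.79). With the mean of all its probe sets Mgst1 was at -0.15 (adjusted p = 0.547). Mgst1, a membrane glutathione transferase, was also higher in the TDAG8 line in all conditions, at 301 to 489.7 against 140.5 to 267.5, by 0.88 (SE 0.07, limma adjusted p = 0.0107). The transferase gene Gsta4 was 0.52 higher there (adjusted p = 0.0422). These were the 2 of 48 pathway genes called between the lines, 4.17% against 1.20% of all genes. When 1 matched pair was left out in turn, Mgst1 passed in 1 of 5 fits and Gsta4 in 0 of 5. In the haem and iron list Blvrb, a biliverdin reductase, was the 1 of 6 called, higher by 0.45 at 12 h, which was lost without the TDAG8 array at pH 7.4 (0.38, adjusted p = 0.0822). Mitochondrial Sod2, which is not chiefly under NRF2, rose by 0.76 (adjusted p = 0.00237), while Cat and Sod1 did not pass.

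**Figure D5:**
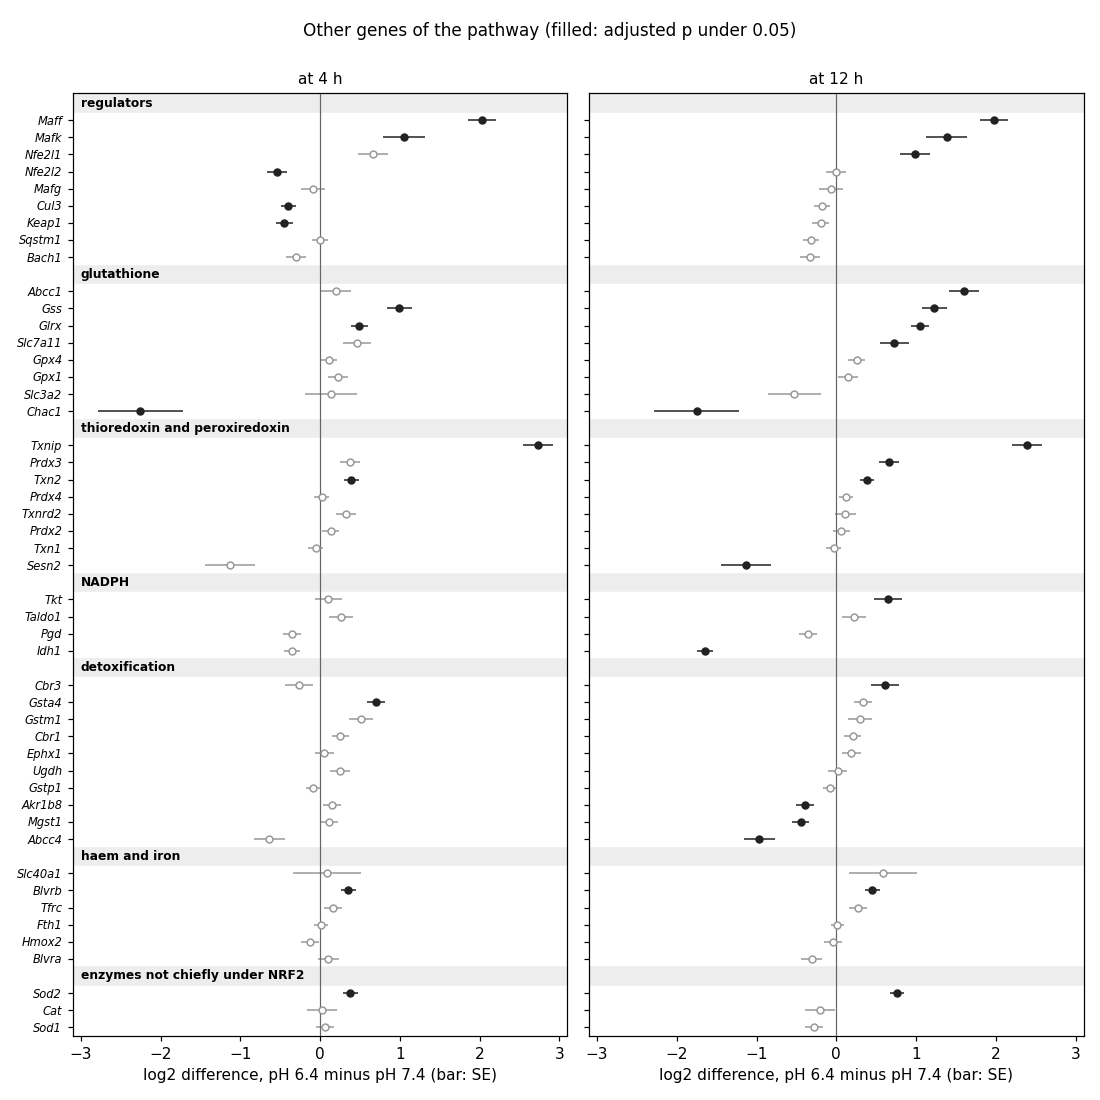
Log2 difference, pH 6.4 minus pH 7.4, of the 48 tested pathway genes at 4 h (left) and 12 h (right), ordered within each list by the 12 h value; bars are the standard error of the fit and filled points passed at an adjusted p under 0.05. Maff, Txnip, Gss, Glrx and Sod2 are filled and above 0 at both times, Chac1 is filled and below 0 at both, and Idh1 is filled and below 0 at 12 h.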

How the data were processed

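The value table holds 1 linear intensity per probe set and array, and the deposited intensity of every array has a 2% trimmed mean of 100, so scaling to a shared target was done by the authors. The authors' summary software is not given in the sources used here. Per the labels, 2 µg of total RNA per array was copied into biotin-labelled cRNA. Symbols came from the platform annotation: 34945 of 45101 probe sets had 1 symbol, 932 several, 9160 none and 64 were controls.

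Values were quantile normalised, because array medians spanned 0.2 on the log2 scale, and taken as log2(value + 2.4), the added number being the 20th percentile of all values. A gene was its probe set with the highest mean, and genes under the 40th percentile (log2 3.17) were left out. limma 3.58.1 in R 4.3.3 (lmFit, eBayes, Benjamini-Hochberg) was fitted over all genes. pH over both times used 4 line-time blocks (3 residual degrees of freedom). pH at each time, the difference between times and the lines used an additive model of line and condition on 10 arrays (4 degrees of freedom). The difference in pH response between lines used 8 arrays in line-time blocks, with no pH by time term (2 degrees of freedom). The number of arrays limits the precision. The code was tested on simulated data.

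The members and lists were chosen with earlier results of these data known. Every member was named, and of each list up to 4 genes that passed; Slc7a11 and the few genes said not to pass were named after their values were seen. Genes alike were the 3 with the highest correlation. A further 8 list genes were not tested: Aldh3a1 and Sod3 were under the filter, and Ggt1, Prdx5, Prdx6, G6pdx, Akr1b3 and Ftl1 had no probe set of a single symbol. The alternatives tried were other scalings, added numbers, filters, probe set rules, priors and blocks, and each pair or array left out in turn. Promoter letters were searched in the RefSeq table of GRCm38.p6.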

Additional observations from a re-analysis of the deposited data

Results flagged for a closer look

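The pH difference after 12 h departed from that after 4 h, by the test of the difference itself, for 2 members and 2 other pathway genes. On the log2 scale the 12 h difference was above the 4 h difference by 0.94 for Gclc, 1.13 for Txnrd1 and 1.40 for Abcc1, and for Idh1 the value was -1.31. With 1 treated array left out in turn, the Abcc1 value ran from 1.15 to 1.65 and was not called in any of these fits. A second Abcc1 probe set was already higher at pH 6.4 after 4 h, by 0.64 (limma adjusted p = 0.0159 over all probe sets), and by 1.31 after 12 h. The second Gclc probe set had pH differences of opposite sign at the 2 times in both lines, 0.93 apart (limma adjusted p = 0.0276 over all probe sets). The brightest Me1 probe set was above its neutral partner at 4 h and below it at 12 h in both lines, a gap of -0.25 that did not pass (adjusted p = 0.285). The pH differences of the second and the third brightest Srxn1 probe sets had opposite signs in the lines at both times, with gaps of 0.68 and 1.37 that did not pass (adjusted p = 1 for each).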

How the results depend on the processing

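With 1 array per line and condition, the counts of calls moved widely, while the 5 members called at 12 h kept their direction under every alternative run. Counts of genes called were as follows. For pH over both times 1220 genes passed, against 241 with no filter, 1919 with the 60th percentile filter, 2076 with a trended and robust prior, 2537 with every probe set, 3397 with pH by time in the model, 1863 with no block, and 0 to 278 when 1 pair was left out; members called were 1, against 0 with no filter, 2 with the 60th percentile filter, with the trended prior and with pH by time, and 0 to 1 when 1 pair was left out. At 4 h 2150 genes passed, against 1073 with no filter, 3667 with every probe set and 403 to 966 when 1 array was left out. Osgin1 was no longer called at 4 h, leaving 0 members, with arrays centred on the median, values as deposited, the added number at the 5th percentile, no filter, the mean of all probe sets, every probe set, and when any 1 array was left out. At 12 h 4195 genes passed, against 7108 with every probe set, of a larger number tested, and 2288 to 3162 when 1 array was left out, with 3 to 6 members. Between the lines 146 genes passed, against 89 with median centring, 96 and 264 with the lower and higher added number, 9 with no filter, 588 with the 60th percentile filter, 881 with the trended prior, 67 with every probe set, 15 with no block and 4 to 28 when 1 pair was left out; the 1 member called with the 60th percentile filter and the trended prior was Nqo1, and 0 members were called when a pair was left out. For the difference between times 1477 genes passed, against 0 with no filter, 2409 with the 60th percentile filter, 837 with the mean of all probe sets, 2539 with the trended prior and 0 to 717 when 1 array was left out; members called were 2, against 0 with no filter, 1 with the mean and 0 to 1 when 1 array was left out. The difference in pH response between lines gave 0 genes under every alternative run. None of those runs added pH by time to that model, so they do not show how the count depends on it. The cause of these moves was not tested.

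Signs that turned belonged to differences that did not pass, apart from Nfe2l2, Cul3 and Slc7a11. With median centring, Me1 became 0.0038 over both times, Gclm, Srxn1 and Gsr became -0.036, -0.060 and -0.0023 at 4 h, and Txnrd1 -0.039 between the lines. With values as deposited, Txnrd1 and Srxn1 became 0.0041 and -0.0096 at 4 h and Txnrd1 -0.013 between the lines. With the mean of all probe sets, Txnrd1 became 0.13, Nfe2l2 2.22 and Cul3 0.49 at 4 h, Slc7a11 -0.40 over both times and -0.12 at 12 h, and Gsr -0.0098 between the times. When 1 pair or array was left out, the differences over both times ran from -0.0078 to 0.13 for Gsr and -0.11 to 0.018 for Me1. At 4 h they ran from -0.010 to 0.15 for Gclm, -0.095 to 0.22 for Srxn1, -0.066 to 0.18 for Gsr and -0.40 to 0.091 for Txnrd1, and at 12 h from -0.073 to 0.20 for Gsr. Between the lines they ran from -0.061 to 0.083 for Gclm, -0.042 to 0.12 for Txnrd1 and -0.012 to 0.18 for Srxn1. For the pH response between lines they ran from -0.21 to 0.29 for Nqo1, -0.44 to 0.57 for Gclc, -0.18 to 1.10 for Txnrd1 and -0.27 to 0.012 for Me1. For the difference between times they ran from -0.048 to 0.19 for Hmox1 and -0.13 to 0.15 for Gsr.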
